A study of Mus musculus with 6 samples.

Results

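Complement is a cascade of plasma and membrane proteins, and 9 of its components and regulators were examined here in mouse heart by RNA sequencing: C1qa, C1qb, C1qc, C1ra, C1s, C3, C4b, Serping1 and Cd55. They were taken from a fixed list of gene symbols, chosen with earlier results of these data known. They are 9 of 36567 genes in the deposited files, and all 9 passed the expression filter for testing. The tested animals were labelled ApoE-/- Timp3-/-, with mutations of the genes for apolipoprotein E and tissue inhibitor of metalloproteinases 3 (libraries 4, 5 and 6, below the double mutants). They were compared with ApoE-/- littermates, called the controls (libraries 1, 2 and 3). All mice were 32 weeks old and all are labelled ApoE-/-, so no animal with a normal Apoe gene was compared. The labels do not give sex, diet, the part of the heart taken or the part of Timp3 that was deleted.

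C1q, made of the A, B and C chains, recognises bound antibody and other surfaces and activates the proteases C1r and C1s. C1s cleaves C4, which together with C2 forms an enzyme that cleaves C3, the step at which all complement routes meet. Serping1 encodes C1 inhibitor, the plasma protein that inactivates C1r and C1s, and Cd55 encodes decay-accelerating factor, a membrane protein that takes C3-cleaving enzymes apart on the body's own cells. Liver supplies most complement protein in plasma, whereas C1q chains are made largely by macrophages and related cells in tissues.

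Library depth was 910, 732 and 683 aligned megabases in double mutants and 654, 1339 and 827 in controls. Timp3, the targeted gene, was listed at 20.2, 28.0 and 29.6 FPKM in double mutants, against 52.1, 38.0 and 36.3 FPKM in controls, as deposited. FPKM count sequenced fragments, corrected for transcript length and for the size of the library. No library of the groups overlapped, with a log2 difference of -0.61 (limma adjusted p = 0.29), and the transcript was thus present in the libraries labelled Timp3-/-. The files mark it as lacking read support over some part of its length in all 3 double mutant libraries and as fully supported in all 3 control libraries. Markers of heart muscle cells summed to 17870 to 22820 FPKM in double mutants and 14310 to 18330 in controls, and the 6 hepatocyte markers to 1.59, 2.504 and 11.3 in double mutants and 1.37, 0.956 and 0.752 in controls. Of these, Ttr was listed at 0 in every library, and Alb was at 6.88 in double mutant library 6 and at most 0.0295 elsewhere. Apoa1, Serpina1a and Fgb were at 0.652, 0.209 and 0.389 in double mutant library 6. Elsewhere these genes were at 0, except Apoa1 at 0.0923 in control library 3. Ahsg was at 1.59, 2.47 and 3.14 in double mutants and 1.37, 0.927 and 0.660 in controls (limma adjusted p = 0.26). The part of hepatocyte RNA in the levels of complement genes was not tested. Control library 1 stood apart from the rest: 6 adipocyte markers summed to 0.880, 17.5 and 1.38 FPKM in double mutants and to 56.0, 2.41 and 2.80 in controls. For this reason the differences of the 9 genes are also given without library 1. Nothing in the labels says more about how the mice relate than that the controls were littermates, and p-values reflect the spread over these 6 libraries alone. FPKM below are gene sums, scaled between libraries so that the typical gene had the same level in each, unless they are called deposited.

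The C1q chains hold collagen-like stretches in which glycine codons (GGN) recur after each pair of other codons. These stretches let the A, B and C chains wind into the stalks of the molecule. In the GENCODE transcripts matched by identifier, the longest unbroken run held 16 glycine triplets in C1qa, 29 in C1qb and 16 in C1qc. Counted over all runs of at least 3 triplets, the chains were closer, with 26 in C1qa, 29 in C1qb and 30 in C1qc. The coding sequences were 735, 759 and 738 bases long. The longest runs are shown because the 3 chains assemble together while their transcripts differ. Capitals mark the glycine codons.
C1qa: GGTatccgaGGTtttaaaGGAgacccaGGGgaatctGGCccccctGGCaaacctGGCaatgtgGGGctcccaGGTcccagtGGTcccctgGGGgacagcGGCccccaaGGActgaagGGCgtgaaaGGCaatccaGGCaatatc
C1qb: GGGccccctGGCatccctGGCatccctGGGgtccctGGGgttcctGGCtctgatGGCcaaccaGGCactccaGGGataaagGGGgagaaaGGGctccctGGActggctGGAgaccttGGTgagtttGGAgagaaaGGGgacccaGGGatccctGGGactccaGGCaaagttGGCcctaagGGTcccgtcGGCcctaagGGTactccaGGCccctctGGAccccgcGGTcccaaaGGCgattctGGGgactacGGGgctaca
C1qc: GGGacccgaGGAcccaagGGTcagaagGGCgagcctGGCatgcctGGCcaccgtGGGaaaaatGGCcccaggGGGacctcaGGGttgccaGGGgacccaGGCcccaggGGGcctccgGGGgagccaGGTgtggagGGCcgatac

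For C4b the sequence matters because a near-identical neighbour, C4a, can share its reads. C4a encodes sex-limited protein, a C4 relative that does not serve the classical pathway. Their transcripts were 96.1% identical over 5367 aligned bases, with a longest identical run of 433 bases. In the stretch where they differ most clearly, 13 of 60 bases are different, marked in capitals, and reads from there can be assigned to a single gene.
C4b: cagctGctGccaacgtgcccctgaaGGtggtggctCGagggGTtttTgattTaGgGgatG
C4a: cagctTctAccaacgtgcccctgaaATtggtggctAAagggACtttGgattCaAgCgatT

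None of the 9 genes passed an adjusted p of 0.05 between genotypes (limma on log2(scaled FPKM + 1), Benjamini-Hochberg over 11403 genes). Few genes did at all: 4 of 11403, or 0.0351%, were called, and none of the 4 is among the 9. The log2 differences between double mutants and controls were above 0 for C1qb, C1s and C4b and below 0 for the other 6. Their median was -0.09, beside -0.01 over all genes tested. Cd55 was the only gene of the 9 whose double mutant and control libraries did not overlap, where 19.2% of all genes showed no overlap. It was also the only one with an unadjusted p under 0.05, a level that 12.2% of all genes reached and that 5.25% reached with lower values in double mutants. In RNA from bulk heart tissue, fewer cells of a type and less RNA per cell cannot be told apart. A gene that misses the threshold here is not shown to be equal, so each difference is given with its 95% interval.

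**Figure D1:**
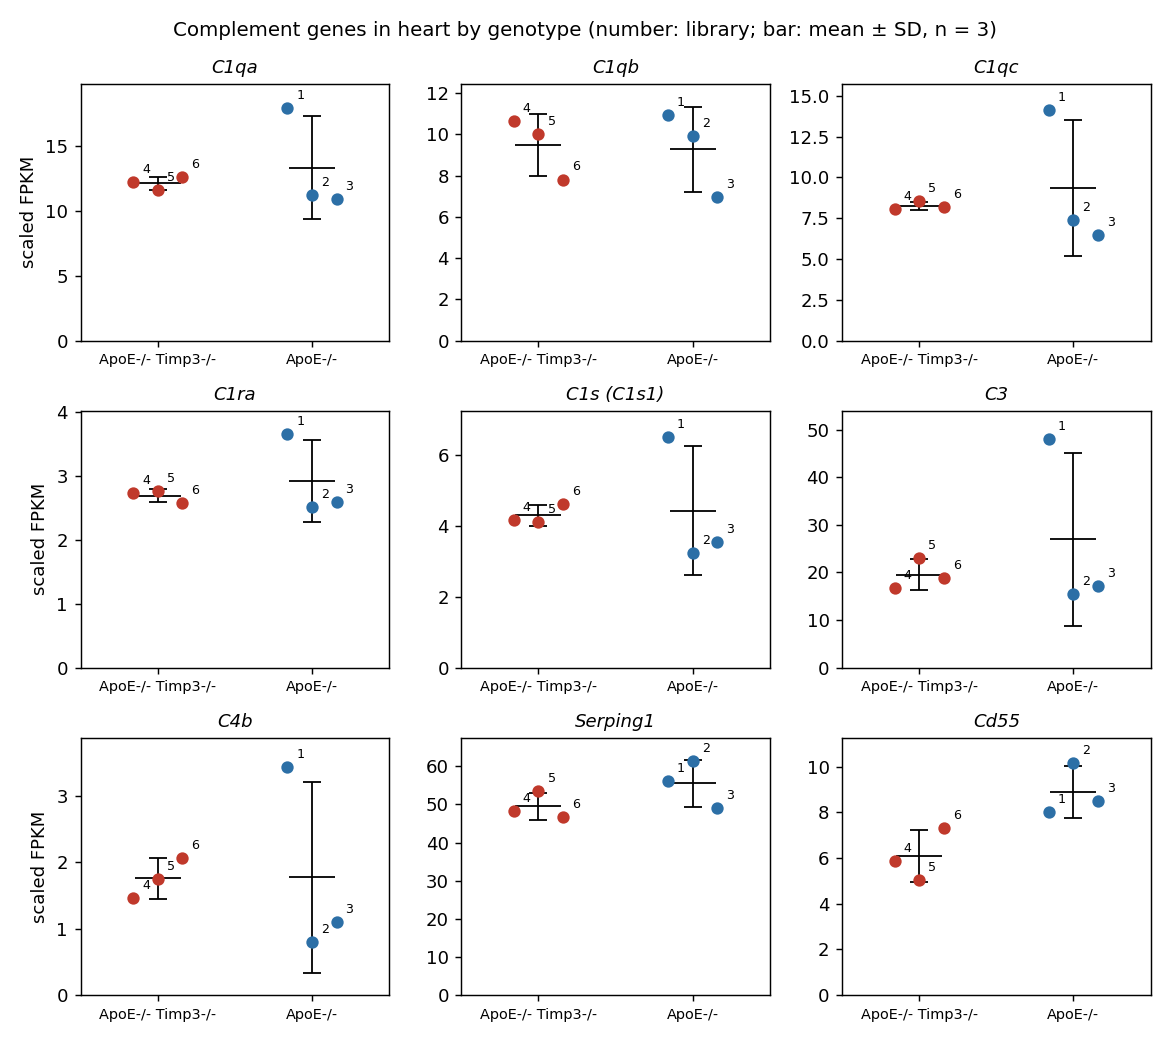
Scaled FPKM of the 9 complement genes in each library (vertical axes, linear, starting at 0), with double mutants in red on the left and controls in blue on the right. Numbers give the library and bars the mean ± SD of 3 libraries. Control library 1 was the highest point in 7 panels, and only in the Cd55 panel do the groups not overlap.

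The genes of the C1q chains lie side by side on chromosome 4 in the NCBIM37 build, all on the minus strand. C1qa (ENSMUSG00000036887) occupies bases 136451832 to 136454718, C1qc (ENSMUSG00000036896) 136445719 to 136448980 and C1qb (ENSMUSG00000036905) 136436044 to 136442102. C1qa was measured at 12.2, 11.6 and 12.6 FPKM in double mutants (libraries 4, 5 and 6) and at 17.9, 11.2 and 10.9 in controls (libraries 1, 2 and 3). The double mutants lay close together, below control library 1 and above the other two controls. Means were 12.1 ± 0.512 FPKM in double mutants and 13.3 ± 3.96 in controls (SD, n = 3 each), with a log2 difference of -0.09 (95% interval -0.54 to 0.36, limma adjusted p = 0.89).

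C1qb, the chain with the longest unbroken glycine run above, was measured at 10.6, 10.01 and 7.81 FPKM in double mutants and at 10.9, 9.91 and 6.97 in controls. Both groups covered almost the same span, and the log2 difference was 0.04 (-0.40 to 0.48, limma adjusted p = 0.96). C1qc was measured at 8.06, 8.55 and 8.18 FPKM in double mutants and at 14.1, 7.40 and 6.48 in controls. The double mutants again lay between the highest control and the other two, with a log2 difference of -0.09 (-0.69 to 0.51, limma adjusted p = 0.93).

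The protein contains the A, B and C chains in equal numbers, and FPKM are per length, so the chains can be compared with each other. Without opposite-strand transcripts, C1qa was the highest chain in every library. The ratio of C1qb to C1qa was 0.874, 0.865 and 0.620 in double mutants and 0.610, 0.885 and 0.641 in controls. The ratio of C1qc to C1qa was 0.662, 0.739 and 0.650 in double mutants and 0.791, 0.661 and 0.595 in controls. Neither ratio separated the genotypes. The 3 chains together reached 30.9, 30.1 and 28.6 FPKM in double mutants and 43.0, 28.5 and 24.3 in controls. Over C1qb, transcripts on the opposite strand were assembled in double mutant library 6 (6.47 deposited FPKM) and in control libraries 1 (7.91) and 3 (2.80). No label or file says whether strand was used, so reads of C1qb and of these transcripts cannot be told apart. Libraries 1, 3 and 6, which had such transcripts, also had the lowest ratios of C1qb to C1qa. The part of these transcripts in those ratios and in the order of the chains was not tested. With the opposite-strand transcripts added to C1qb, the log2 difference was -0.07. Over C1s, opposite-strand transcripts were assembled in every library, with 5.14, 3.8 and 3.37 deposited FPKM in double mutants and 5.34, 3.85 and 3.52 in controls, and the same limit holds for that gene.

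C1ra and C1s encode the proteases that C1q activates and lie near each other on chromosome 6. C1ra (ENSMUSG00000055172, bases 124462423 to 124473458, plus strand) was measured at 2.73, 2.76 and 2.57 FPKM in double mutants and at 3.65, 2.51 and 2.59 in controls. The groups overlapped, and the log2 difference was -0.07 (-0.41 to 0.26, limma adjusted p = 0.88). C1s, listed as C1s1 (ENSMUSG00000038521, minus strand, from base 124480363), was measured at 4.16, 4.10 and 4.63 FPKM in double mutants. Controls had 6.52, 3.23 and 3.55 FPKM, 1 above and 2 below all double mutants, and the log2 difference was 0.01 (-0.51 to 0.53, limma adjusted p = 0.99). C1ra was lower than C1s in every library, with a ratio of 0.657, 0.673 and 0.556 in double mutants and 0.561, 0.775 and 0.729 in controls.

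Both proteases have a near-identical neighbour gene. C1ra and C1rb transcripts were 98.0% identical over 2428 bases, and C1s1 and C1s2 transcripts 95.9% identical over 2661 bases, so their split is uncertain. The copy C1s2 was listed at 0 in every library. A transcript placed at C1rb had 0, 0.551 and 0.574 deposited FPKM in double mutants and 0.650, 0 and 0 in controls. A second reference transcript, counted as C1s by exon overlap, runs on to base 124586085. That end lies inside C1s2 (bases 124574584 to 124587055), so the 0 of C1s2 and the level of C1s depend on this assignment. The second transcript shared the level unevenly: it took all 3.68 deposited FPKM of C1s in double mutant library 5 and none in control library 3. In the fit of single transcripts this form had a log2 difference of 0.68 and the shorter form -0.76, neither past the threshold (limma adjusted p = 0.77 for both).

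C4b (ENSMUSG00000073418, chromosome 17, bases 34865325 to 34880827, minus strand) was the lowest of the 9, and its sequence beside C4a is shown above. It was measured at 1.46, 1.75 and 2.07 FPKM in double mutants and at 3.44, 0.799 and 1.09 in controls. All double mutants lay above controls 2 and 3 and below control 1. Means were 1.76 ± 0.304 FPKM in double mutants and 1.78 ± 1.45 in controls (SD, n = 3 each), with a log2 difference of 0.10 (-0.67 to 0.88, limma adjusted p = 0.93). C4a was at 0.842, 1.083 and 0 FPKM in double mutants and 0.530, 0.748 and 0.485 in controls, below C4b in all 6 libraries. In double mutant library 6, where C4a was at 0, an assembled transcript running from C4b to the end of C4a (34865325 to 34960409) held 0.508 deposited FPKM and was counted as C4b. The split between the neighbours there depends on that assignment.

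C3, the protein on which the complement routes converge (ENSMUSG00000024164, chromosome 17, bases 57343397 to 57367559, minus strand), had the widest spread of the 9. It was measured at 16.8, 23.1 and 18.8 FPKM in double mutants and at 48.0, 15.6 and 17.2 in controls. Control library 1 was above every double mutant, control library 2 below every double mutant and control library 3 between double mutant libraries 4 and 6. Means were 19.5 ± 3.22 FPKM in double mutants and 26.9 ± 18.3 in controls (SD, n = 3 each). The log2 difference was -0.27 with a wide interval, -1.20 to 0.67 (limma adjusted p = 0.83).

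Serping1 (ENSMUSG00000023224, chromosome 2, bases 84605544 to 84615601, minus strand) was the highest of the 9. It was measured at 48.3, 53.6 and 46.8 FPKM in double mutants and at 56.1, 61.4 and 49.2 in controls. Double mutants 4 and 6 lay below every control, and library 5 lay above control library 3. Means were 49.6 ± 3.54 FPKM in double mutants and 55.6 ± 6.13 in controls (SD, n = 3 each), with a log2 difference of -0.16 (-0.47 to 0.15, limma adjusted p = 0.68).

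Cd55 (ENSMUSG00000026399, chromosome 1, bases 132335604 to 132359321, minus strand) was measured at 5.86, 5.06 and 7.30 FPKM in double mutants and at 8, 10.2 and 8.50 in controls. Every double mutant was below every control, by the smallest margin between double mutant library 6 and control library 1. Means were 6.07 ± 1.14 FPKM in double mutants and 8.89 ± 1.14 in controls (SD, n = 3 each). The log2 difference was -0.49 (-0.86 to -0.12, SE 0.16), with an unadjusted p of 0.016 and an adjusted p of 0.30 by limma over all genes. The difference was below 0 in all 23 alternative settings, with adjusted p between 0.13 and 0.78.

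The Cd55 separation rested in part on how transcripts were summed. In control library 3, 3.53 of 7.83 deposited FPKM came from an assembled transcript of 1 exon at the gene's 3′ end. With reference transcripts alone the log2 difference was -0.25 and the groups overlapped. The near-identical copy Cd55b, 93.6% identical over 1133 bases, was at 0.461, 0.716 and 0.888 FPKM in double mutants and 1.46, 1.09 and 0 in controls. Endothelial markers summed to 160, 122 and 125 FPKM in double mutants and 148, 196 and 169 in controls, overlapping between genotypes. Of the 8, 3 were lower at an unadjusted p under 0.05, beside the 5.25% of all genes, and none at an adjusted p of 0.05. Fibroblast markers summed to 265, 316 and 309 FPKM in double mutants and 426, 375 and 312 in controls, and 5 of 10 were lower at that unadjusted level, none after adjustment. The part of these cell types in the Cd55 difference was not tested.

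Control library 1 carried the highest value of 7 of the 9 genes, all except Serping1 and Cd55, whereas 18.0% of all genes tested were highest there. Against the median of the other 5 libraries it was 2.79 times as high for C3, 2.36 for C4b, 1.76 for C1qc, 1.59 for C1s and 1.55 for C1qa. It was 1.41 times as high for C1ra and 1.10 for C1qb, the latter without its opposite-strand transcripts. Without library 1 the double mutants were above controls 2 and 3 in the means of all 5 C1 genes, C3 and C4b. The log2 differences were then 0.12 for C1qa, 0.16 for C1qb, 0.22 for C1qc, 0.05 for C1ra, 0.27 for C1s, 0.23 for C3 and 0.49 for C4b. Serping1 stayed at -0.15 and Cd55 at -0.55.

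In that comparison of 3 double mutants with 2 controls, no gene of the 9 was called. C4b came nearest among those with higher values (unadjusted p = 0.023, limma adjusted p = 0.40), and Cd55 had an adjusted p of 0.39. Groups did not overlap for 5 of the 9: C1qa, C1qc, C1s and C4b, higher in double mutants, and Cd55, lower. Over all genes 29.3% did not overlap in the same comparison. The median of the 9 was 0.16 without library 1.

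Markers of other cell types moved with library 1. The 12 macrophage markers summed to 45.6, 56.7 and 62.4 FPKM in double mutants and to 117, 46.1 and 42.3 in controls, and 10 of the 12 were highest in library 1. Lyz2, the lysozyme of macrophages, was at 27.2, 33.2 and 39.8 FPKM in double mutants and 81.7, 31.3 and 25.7 in controls. Csf1r, the macrophage growth factor receptor, was at 2.15, 2.67 and 2.92 FPKM in double mutants and 3.65, 1.53 and 2.13 in controls. Of the 12, 8 passed the filter for testing, and none of these 8 had an unadjusted p under 0.05 between genotypes. The summed C1q chains divided by Csf1r gave 14.4, 11.3 and 9.78 in double mutants and 11.8, 18.7 and 11.4 in controls. Library 1 lay inside the range of the others in this ratio, which uses 1 of the 12 markers. Relative to the sum of the 12 markers, C1q was instead lowest in library 1, with 43.0 FPKM beside 117. Next lowest was double mutant library 6, with 28.6 beside 62.4. The part of macrophages in the C1q levels was not tested.

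Adipocyte and other markers differed in library 1 as well. Adipoq, the adipocyte hormone adiponectin, was at 0.156, 6.38 and 0.446 FPKM in double mutants and 19.9, 0.245 and 0.513 in controls. The 4 atrial markers summed to 173, 962 and 1409 FPKM in double mutants and 1457, 810 and 122 in controls. In control library 2 the marker Nppa alone was at 797 FPKM. The mean log2 deviation of the 4 markers was -1.61, 1.68 and 2.20 in double mutants and 2.42, -1.95 and -2.73 in controls. Double mutant libraries 5 and 6 were thus high by this mean along with library 1. The 5 mesothelial markers summed to 10.6, 14.2 and 11.5 in double mutants and 19.3, 8.49 and 7.47 in controls. Red cell markers instead stood out in double mutant library 4, with 12250 FPKM beside 471 and 1194 in the other double mutants and 489, 336 and 113 in controls. The part of these cells in the levels of complement genes was not tested.

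**Figure D2:**
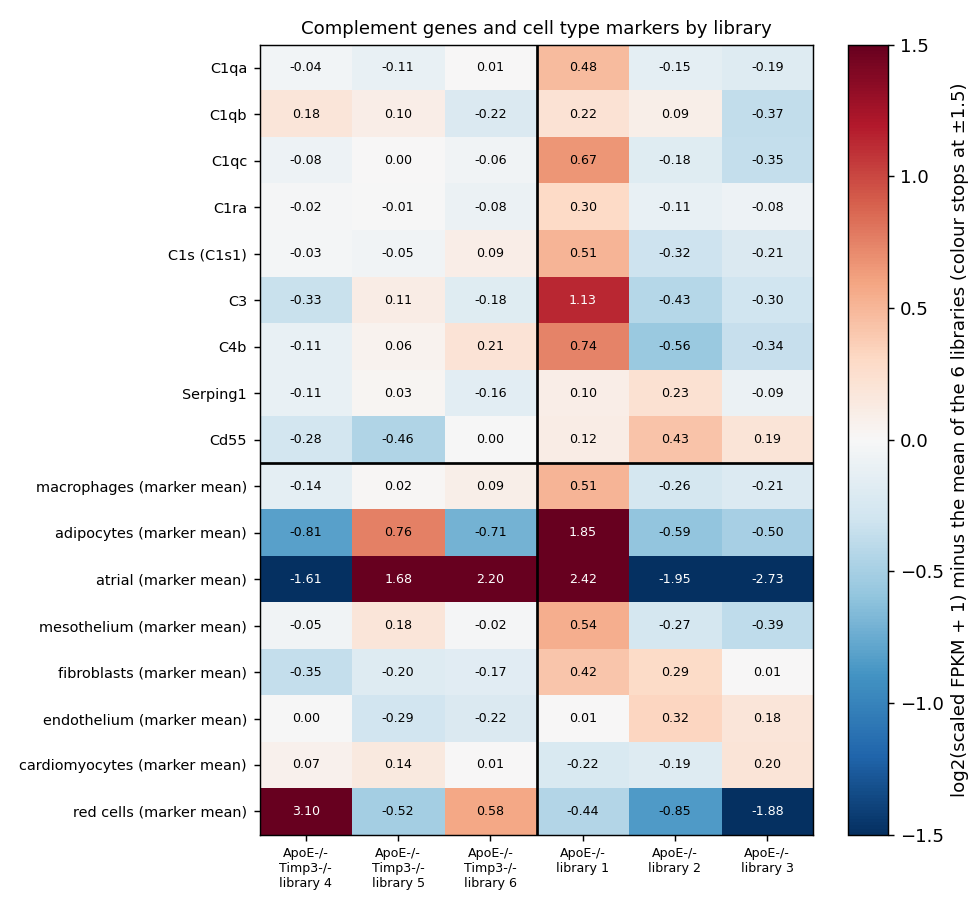
Deviation of each library from the mean of all 6, in log2(scaled FPKM + 1), for the 9 complement genes (upper block) and for the mean of each marker list (lower block), with double mutants in the left 3 columns. Library 1 was above the mean for all 9 genes and for the macrophage, adipocyte, atrial, mesothelial and fibroblast marker means, and by only 0.01 for the endothelial mean.

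Part of several genes' level came from transcripts assembled in a single library. The reference transcript of C3 had 12.2, 12.02 and 12.8 deposited FPKM in double mutants and 36.9, 6.89 and 15.9 in controls. In double mutant libraries 5 and 6 and control libraries 1 and 2, a shorter C3 form of 25 exons covering the 3′ part of the gene was assembled, with 8.65, 6.16, 19.0 and 8.78 deposited FPKM. In double mutant library 4 a form of 42 exons as long as the reference had 4.93, and control library 3 had none. The reference transcript was highest in library 1 as well, where the file's bounds were 35.5 to 38.4, clear of every other library.

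C1qc depended most on this step. An assembled form held 1.26 of 8.27 deposited FPKM in double mutant library 6 and 12.6 of 16.5 in control library 1, and none was assembled elsewhere. Its reference transcript alone had 8.23, 7.67 and 7.002 deposited FPKM in double mutants and 3.92, 7.45 and 5.96 in controls. On reference transcripts alone the log2 difference of C1qc was 0.43, opposite in sign to the sum (adjusted p = 0.63 by limma). For C4b, assembled forms held 24.4% of the deposited FPKM in double mutant library 6 and 59.1% and 43.5% in control libraries 1 and 3, and none in the others. With reference transcripts alone its log2 difference was 0.43 (limma adjusted p = 0.58). C1qa had a single reference transcript in every library, and there the file's bounds for library 1, 18.6 to 23.1, also lay clear of the other 5. Among single transcripts, 16 of 12406, or 0.129%, were called, and none of the 11 tested transcripts of the 9 genes was called or had an unadjusted p under 0.05.

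**Figure D3:**
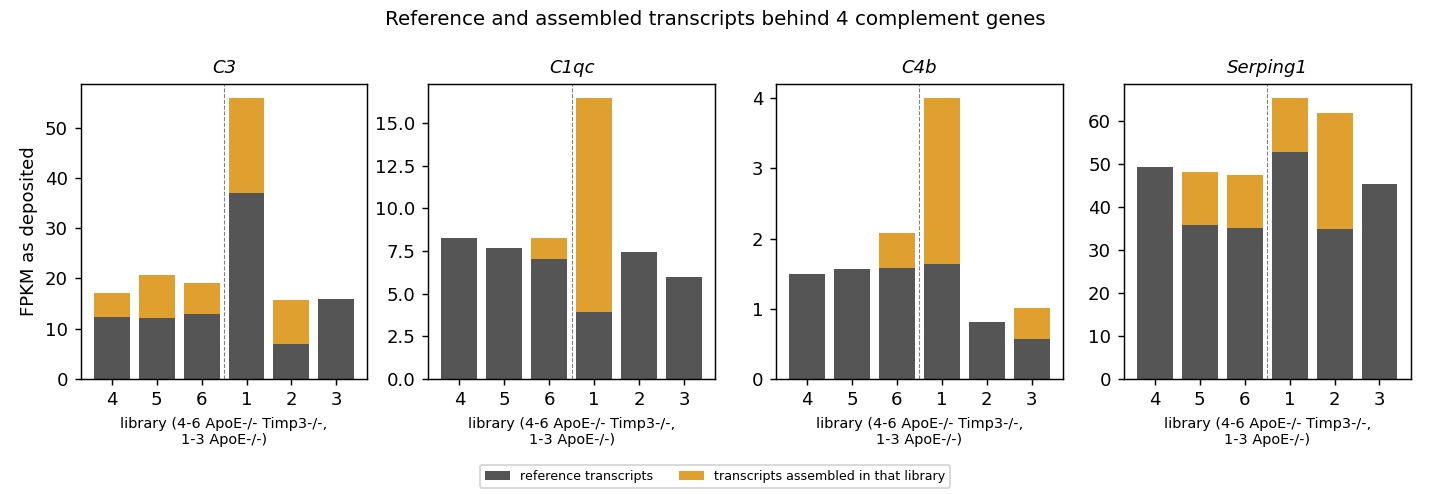
Deposited FPKM of C3, C1qc, C4b and Serping1 in each library (vertical axes, linear, starting at 0), split into reference transcripts (grey) and transcripts assembled in that library (yellow). Double mutants 4 to 6 are left of the dashed line. The assembled part of C1qc was 12.6 of 16.5 in library 1 and at most 1.26 elsewhere.

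The wider complement system was read from a list of 55 genes by role. In the files 54 were present, 5 were at 0 in every library and 25 were tested, 9 with a log2 difference above 0 and 16 below, with a median of -0.09. Of the 25, 1 was called, Cfhr2, which was lower in double mutants, beside 4 of 11403 genes, or 0.0351%, over the whole table. An unadjusted p under 0.05 was reached by 3, all lower, where 12.2% of all genes reached that level and 5.25% with lower values. Groups did not overlap for 4 of the 25, against 19.2% of all genes. By role, 9 of 19 genes of classical and lectin initiation were tested, 3 of 5 central and alternative genes, 1 of 6 terminal genes, 5 of 9 soluble regulators, 4 of 6 membrane regulators and 3 of 10 receptors. Of the terminal components, C8a, C8b and C9 were at 0 in every library. C7, too low to be tested and named after its values were seen, was at 0.116, 0.408 and 0.163 FPKM in double mutants and 0.898, 0.876 and 0.742 in controls. Called genes numbered 0 in every role except soluble regulators, with 1.

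Cfhr2, a factor H-related gene (ENSMUSG00000033898, chromosome 1, minus strand), was listed at 0 in all 3 double mutants and at 4.72, 2.22 and 2.97 deposited FPKM in controls (limma adjusted p = 0.034). An exact 0 can be a failed estimate, so no fold is given. The whole value came from a transcript of 984 bases at 141701945 to 141755276, which the files mark as not fully supported by reads in any library. It had read coverage between 4.59 and 5.23 in controls. The transcript was given to Cfhr2 by exon overlap, not by transcript ID. How reads were split between Cfhr2 and neighbouring genes was not tested. The call was lost without double mutant library 4 (limma adjusted p = 0.075), 5 (0.15) or 6 (0.15), without control library 1 (0.088) or 3 (0.13), and with a pseudocount of 0.1 (0.093), reference transcripts alone (0.10), the strongest transcript (0.13) or aligned bases per gene (0.12). Over its 20 alternative settings the adjusted p ran from 0.0058 to 0.15, with lower values in double mutants in all 20.

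Cd93, a surface protein of endothelial and myeloid cells once described as a C1q receptor, was the next by p-value. It was measured at 9.84, 10.5 and 10.4 FPKM in double mutants and at 15.2, 17.03 and 16.6 in controls. The groups were well apart and narrow, with means of 10.2 ± 0.352 FPKM in double mutants and 16.3 ± 0.986 in controls (SD, n = 3 each). The log2 difference was -0.62 (95% interval -0.87 to -0.37, unadjusted p = 0.000625), but the adjusted p was 0.23 by limma over all genes. Without library 1 the difference was -0.67 (adjusted p = 0.31). Endothelial markers, given above for Cd55, had lower sums in 2 of the 3 double mutants than in any control, and their part in the Cd93 difference was not tested.

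No other gene taken from the wider list by the naming rule passed the threshold. Among pattern recognition genes, Colec11, a collectin of the lectin pathway, had 3.09, 1.89 and 1.99 FPKM in double mutants and 2.43, 5.32 and 4.20 in controls. Fcna, ficolin A, had 1.61, 2.76 and 2.14 FPKM in double mutants and 2.93, 1.19 and 0.891 in controls. Both overlapped between genotypes, with log2 differences of -0.56 and 0.31 (limma adjusted p = 0.43 and 0.72). Single libraries moved both. Colec11 ran from -0.80 without control library 1 to -0.36 without control library 2 and was 0.0088 with reference transcripts alone. Fcna was 0.62 without control library 1 (adjusted p = 0.39), 0.10 without control library 3, 0.18 without double mutant library 5, 0.20 without control library 2 and -0.19 with the strongest transcript.

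Cfd, the alternative pathway protease factor D that is made in quantity by adipocytes, had 0.692, 16.0 and 1.93 FPKM in double mutants and 93.5, 3.61 and 2.44 in controls. Its order over the libraries followed Adipoq only in part: libraries 1 and 5 were highest for both. The log2 difference was -1.39 with an interval of -4.60 to 1.83, and 0.14 without library 1.

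Among regulators of the terminal steps, Clu, clusterin, was at 151, 168 and 180 FPKM in double mutants and 152, 169 and 123 in controls, above all 9 genes. Vtn, vitronectin, was at 8.47, 4.25 and 3.64 FPKM in double mutants and 4.60, 9.18 and 6.74 in controls. Cd59b, a membrane inhibitor of the terminal complex, was listed at 0, 2.11 and 6.94 FPKM in double mutants and at 5.94, 5.59 and 7.19 in controls. All 3 overlapped between genotypes, with log2 differences of 0.18, -0.31 and -1.31 (limma adjusted p = 0.70, 0.74 and 0.49). With 1 library left out, Clu ran from 0.05 (without control library 3) to 0.28 (without control library 2), and it was 1.46 with reference transcripts alone. Vtn ran from -0.62 (without double mutant library 4) to -0.10 (without control library 2), with -0.53 without control library 1. Cd59b ran from -2.03 (without double mutant library 6) to -0.53 (without double mutant library 4). With reference transcripts alone Cd59b fell below the filter and was not tested, so its level rests on assembled transcripts. As for Cfhr2, its exact 0 in double mutant library 4 can be a failed estimate.

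Cr1l, the membrane regulator known as Crry in mice, shares with Cd55 the control of C3-cleaving enzymes on cells. It was at 24.0, 23.9 and 22.5 FPKM in double mutants and 21.8, 21.6 and 22.3 in controls. The groups did not overlap, by a small margin, and the log2 difference was 0.10 (-0.15 to 0.34, limma adjusted p = 0.75), opposite in sign to Cd55. With reference transcripts alone it was 0.83 (adjusted p = 0.50), and scaling every library to the same total, which moved the median of all genes to -0.16, gave -0.09. Whether the 2 genes' differences differ from each other was not tested.

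**Figure D4:**
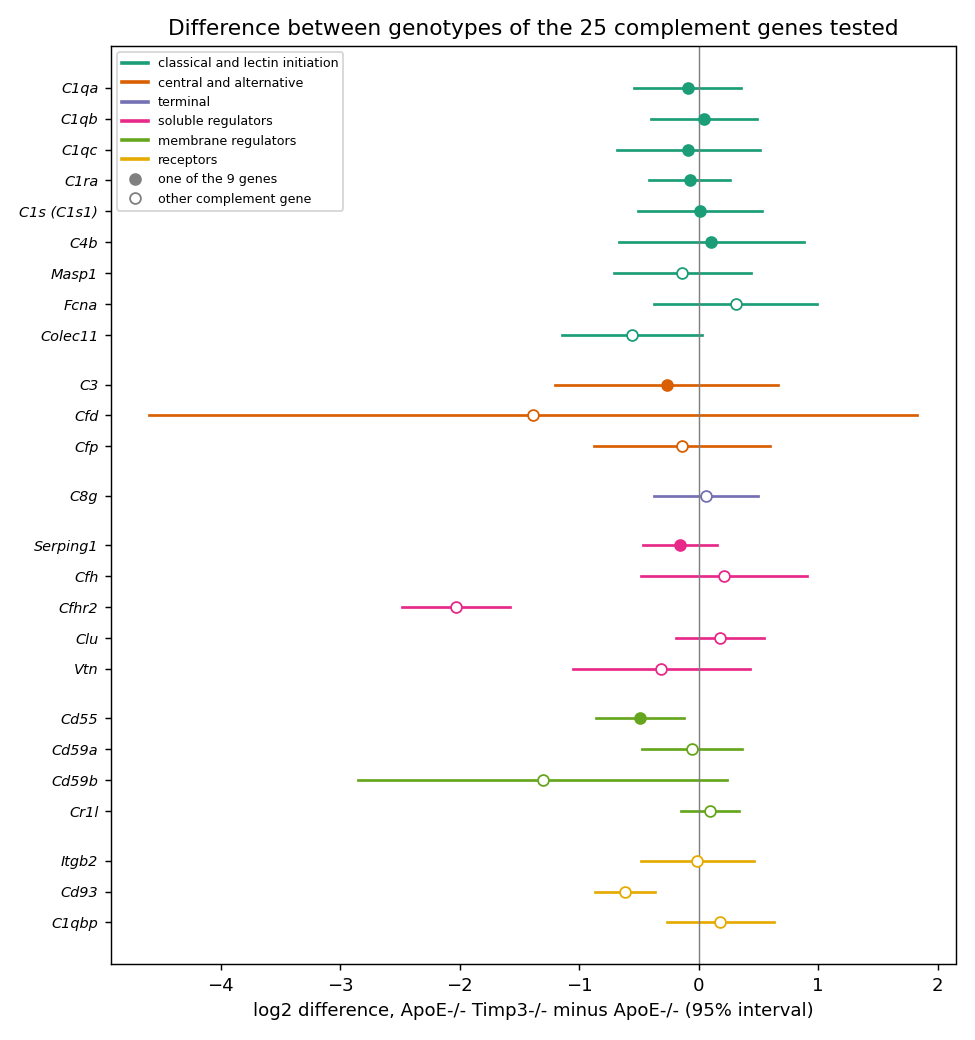
Log2 difference between double mutants and controls, positive where double mutants were higher, with 95% intervals from limma, for the 25 complement genes tested. Filled points are the 9 genes and open points the other 16, coloured by role. Intervals clear of 0 belong to Cfhr2, Cd93 and Cd55, all below 0.

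By mean level over the 6 libraries, the order was Serping1 (52.6 FPKM), C3 (23.2), C1qa (12.7), C1qb (9.38), C1qc (8.80), Cd55 (7.48), C1s (4.36), C1ra (2.80) and C4b (1.77). Most steps of this order held in every library. C1qb was above C1qc in 4 of 6 libraries and C1qc above Cd55 in 4 of 6, and each other gene was above the next in 6 of 6. The ranges over libraries nevertheless overlapped between all neighbours in this order.

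For each gene, the 2 genes most like it over the 6 libraries were sought among those tested, by the root mean square difference between standardised log2 profiles. The closest match of all was St3gal4 for C1qc (0.071). Ctss was closest to C1s (0.092) and had 6.05, 5.78 and 6.73 FPKM in double mutants and 16.5, 2.99 and 3.74 in controls. Mpeg1 was closest to C1qa (0.11), with 1.94, 1.62 and 2.03 FPKM in double mutants and 4.67, 1.26 and 1.30 in controls. Gpnmb was closest to C3 (0.13), with 0.531, 1.66 and 1.13 FPKM in double mutants and 10.97, 0.666 and 0.527 in controls. These profiles share the high library 1.

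Lrrc61 was closest to C1qb (0.17), Soat1 to C4b (0.15), Xpc to Serping1 (0.17) and Plpp6 to Cd55 (0.11). Other close matches were Mfsd12 for C1qa (0.11), Ufsp2 for C1qb (0.23), Acp5 for C1qc (0.13), Cd68 for C1ra (0.18) and Kank1 for C1s (0.13). They were Tmem45b for C3 (0.14), Samd10 for C4b (0.16), Robo4 for Serping1 (0.18) and Ostm1 for Cd55 (0.15). Over 6 libraries such matches are a description, and their values come from the same libraries as the genes they were matched to.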

How the data were processed

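For every library the authors deposited the FPKM and coverage of each reference and assembled transcript, per the file headers. Per the submitters' processing notes, TopHat, Bowtie and Cufflinks were used with build NCBIM37; versions are not given there. Depth is coverage times length, since reads per gene are not known; no count test or counting interval is possible.

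Of 94670 reference transcripts, 82353 were given to a gene by transcript ID, 5261 by gene ID and 6276 by exon overlap of at least 50%; 39513 of 70603 assembled transcripts were given by overlap. GENCODE M21 served for symbols, identifiers and transcript sequences; coordinates are the files'. Genes left out because a transcript was absent from a file numbered 193.

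A gene's value was its summed FPKM, scaled by the median of ratios (factors 0.897 to 1.17). Genes with a mean FPKM of at least 1 and a transcript of at least 300 nt were tested two-sided on log2(scaled FPKM + 1) with limma (version 3.58.1, R 4.3.3), letting the prior variance follow intensity; p-values were adjusted by Benjamini-Hochberg and read at 0.05; differences on this scale understate changes of low genes. The procedure was tested on simulated data in which every gene had the same spread. The real genes differed in this, with a log2 SD within groups of 0.13 for Serping1 and 0.63 for C3. The labels share no library number between groups, so there was no block.

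The 9 genes, the lists and the tests were chosen with earlier results of these data known. Named genes were the 9, their near-identical copies, every called gene of the wider list and the 10 others with the smallest p, the 2 most alike genes each, and Timp3. A gene that this rule takes is not reported here. Csf1r, Lyz2, Adipoq, Nppa, Ttr, Alb, Ahsg, Apoa1, Serpina1a, Fgb, C7, C8a, C8b and C9 were named from their lists after their values were seen. Alternatives changed scaling, pseudocount, filter, transcripts summed, fit and library.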

Additional observations from a re-analysis of the deposited data

How the results depend on the processing

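No gene of the 9, and none of their transcripts, was called under any setting tried, leaving out each library included (0 to 0). No paired analysis was possible because the labels give the groups no shared library number. Over the whole table the 4 calls became 8 with a mean FPKM of at least 0.1 or no filter, 1 with at least 5 (6 of the 9 tested), 7 with reference transcripts alone, 104 with libraries weighted by their spread, 1 to 10 with 1 library left out and, in settings chosen after seeing the data, 7 with aligned bases per gene and 0 without genes at 0 in any library (1418 at an unadjusted p under 0.05). The wider list's 1 call became 0 with a pseudocount of 0.1, a mean of at least 5, reference transcripts alone, the strongest transcript or aligned bases, 2 with weighted libraries (Cd93, adjusted p = 0.049 by limma), and 0 to 1 with 1 library left out. Genes of the 9 without overlap numbered 2 under scaling to the same total (26% of all genes), 0 with reference transcripts (17.5%) or the strongest transcript alone (16.8%), and 1 to 5 with 1 library left out (26% to 33.8%). Scaling to the same total moved the median of all genes to -0.16. The median of the 9 ran from -0.21 to 0.16 with 1 library left out.

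These log2 differences changed sign. Weighting gave C1qa 0.021, C1qc 0.13, C3 0.026 and Cfd 0.077. No further scaling gave C1qb -0.028 and C1s -0.055, and scaling to the same total C1qb -0.13, C1s -0.15, C4b -0.019, Clu -0.011 and Cr1l -0.086; quantile normalization gave Clu -0.00025. Reference transcripts alone gave C1qc 0.43, C1s -0.0023 and Colec11 0.0088, and the strongest transcript C1qc 0.42, C1ra 0.064, C1s -0.76, Colec11 0.0019 and Fcna -0.19. A mean of at least 5 gave C1qb -0.00033, added copies C1ra 0.016, and, chosen after seeing the data, aligned bases gave C1s -0.029 and antisense transcripts C1qb -0.068. With 1 library left out the ranges were -0.21 to 0.12 for C1qa, -0.13 to 0.16 for C1qb, -0.29 to 0.22 for C1qc, -0.15 to 0.055 for C1ra, -0.14 to 0.27 for C1s, -0.55 to 0.23 for C3, -0.15 to 0.49 for C4b and -2.37 to 0.14 for Cfd. Serping1 (-0.24 to -0.08) and Cd55 (-0.61 to -0.38) kept their sign. The causes were not tested. Depth limits the lowest gene most: the C4b reference transcript had a mean coverage of 2.29, 2.33 and 1.95 in double mutants and 1.82, 1.95 and 0.870 in controls.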
